A study of Homo sapiens with 7 samples.

Results

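The 31 genes described here encode the enzymes and partner proteins that take glucose to pyruvate and on to lactate or acetyl-CoA, and a few that run the route backwards to glucose. They were chosen by symbol from a list of this pathway, with earlier results of these data known. All 31 were found among the 33117 listed genes, each under 1 Ensembl identifier. Of these, 29 reached a mean of 1 TPM (a length-corrected share of all transcripts) over the libraries and were tested, as were 16724 genes in all. PDK4 and FBP1 stayed below that mean. RNA sequencing had been done on 7 libraries of 769-P, an established human kidney cancer line grown in RPMI medium with serum. There were 3 libraries of 769-P PA, a name the labels do not expand, and 4 of 769-P Lat-M, which the series title calls latent metastatic cells of clear cell renal cell carcinoma. The Lat-M libraries 1-1 and 1-2 are called Lat-M1 and 2-1 and 2-2 are called Lat-M2, but the meaning of the first number is not labelled, and neither is whether libraries came from separate cultures. The p-values therefore reflect no more than library-to-library spread, possibly technical. The labels name 2 library kits without assigning them to libraries, so kit and group cannot be told apart.

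Glycolysis splits glucose into pyruvate in the cytosol. Hexokinase traps glucose, phosphofructokinase commits it, and enolase and pyruvate kinase close the route. Pyruvate is then either reduced to lactate by lactate dehydrogenase and exported, or carried into the mitochondrion and oxidised by the pyruvate dehydrogenase complex, which the pyruvate dehydrogenase kinases switch off. The normal proximal tubule makes glucose through FBP1, PCK1 and pyruvate carboxylase, whereas clear cell renal carcinoma is known for high glycolysis and for loss of FBP1. Several steps have isoenzymes from different genes, encoded separately and used in different tissues.

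The lineage and makeup of the libraries bear on all values. PAX8, a renal lineage factor, was at 65.6 to 87.9 TPM and VIM at 1981 to 2428 TPM in the 7 libraries, while CA9 and NDUFA4L2, both commonly high in clear cell carcinoma, were at most 0.16 and 0.105 TPM. Of the other markers fixed for the line, PAX2 was at 0.633 to 1.63 TPM, and the keratins differed between groups. KRT8 was at 112 to 142 TPM in PA, 88.8 and 95.04 TPM in Lat-M1 and 206 and 181 TPM in Lat-M2, called lower in Lat-M1 and higher in Lat-M2 against PA (limma adjusted p = 0.00998 and 0.0164). KRT18 was at 270.4 to 285 TPM in PA, 259 and 267 TPM in Lat-M1 and 441 and 402 TPM in Lat-M2, called higher in Lat-M2 (limma adjusted p = 0.00169). The part of these shifts in the results was not tested. Of 6 fibroblast and pericyte markers, COL1A1 set the sum, which was 1.41 to 1.74 TPM in PA, 20.0 and 21.7 TPM in Lat-M1 and 4.10 and 3.10 TPM in Lat-M2, and COL1A2, DCN, LUM and PDGFRA were at most 0.0364 TPM in any library. PDGFRB was at 0.185 to 0.974 TPM. PTPRC of leukocytes and VWF, CDH5 and KDR of endothelium were at most 0.0156 TPM, while CD68, a macrophage marker that many tumour lines also express, was at 14.1 and 15.5 TPM in Lat-M1 and 39.7 to 48.2 TPM in the other libraries. In bulk libraries fewer cells of a type and less RNA per cell cannot be told apart. TPM keeps no depth, so the depth behind each value is unknown. The abundant structural RNAs RN7SL1, RN7SL2, RN7SK and RMRP took 29.5% to 31.8% of all TPM in PA, against 18.6% and 21.9% in Lat-M1 and 22.9% and 27.7% in Lat-M2. TPM has a fixed sum within a library, and the log2 fold changes of the tested genes had medians above 0, 0.16 for Lat-M1 and 0.14 for Lat-M2 against PA. Counts are therefore also given after each library was scaled by its median ratio to the others ("scaled"), which brought these medians to 0.0042 and -0.00054.

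The gene starts of 4 members are shown, chosen from the changes described below and not all among the largest. ENO2 had the largest fall and PKM the largest rise in Lat-M1 against PA, and PDHA1 and PDHB encode the 2 subunits of 1 enzyme and moved in opposite directions. The 250 bases before the start are given 5′ to 3′ on the strand of the gene, from RefSeq on GRCh38.p14, a later build than the hg19 named for these data. Capitals mark ACGTG or GCGTG on either strand, the core that hypoxia-inducible factors bind, which also lies inside the E box CACGTG.
ENO2 (chr12:6914330-6914579, plus strand): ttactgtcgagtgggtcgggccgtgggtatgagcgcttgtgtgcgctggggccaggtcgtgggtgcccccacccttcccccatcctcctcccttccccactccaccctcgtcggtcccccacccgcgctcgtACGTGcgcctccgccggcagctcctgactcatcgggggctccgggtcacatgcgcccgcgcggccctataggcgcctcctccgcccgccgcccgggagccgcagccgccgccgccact
PKM (chr15:72231191-72231440, minus strand): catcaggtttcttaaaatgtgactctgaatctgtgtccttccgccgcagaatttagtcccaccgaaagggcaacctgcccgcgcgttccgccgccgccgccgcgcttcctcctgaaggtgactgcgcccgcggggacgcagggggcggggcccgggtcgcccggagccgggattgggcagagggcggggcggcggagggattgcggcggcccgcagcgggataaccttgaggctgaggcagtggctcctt
PDHA1 (chrX:19343677-19343926, plus strand): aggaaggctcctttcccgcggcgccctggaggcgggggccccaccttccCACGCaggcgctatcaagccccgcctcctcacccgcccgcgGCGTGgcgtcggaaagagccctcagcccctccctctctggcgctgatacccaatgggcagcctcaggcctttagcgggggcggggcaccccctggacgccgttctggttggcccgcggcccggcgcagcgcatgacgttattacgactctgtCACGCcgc
PDHB (chr3:58433833-58434082, minus strand): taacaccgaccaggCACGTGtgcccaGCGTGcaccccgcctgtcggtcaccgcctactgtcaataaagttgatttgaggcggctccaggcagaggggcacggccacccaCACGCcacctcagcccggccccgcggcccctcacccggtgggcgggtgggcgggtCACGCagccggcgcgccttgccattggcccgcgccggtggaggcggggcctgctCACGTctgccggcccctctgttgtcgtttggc
The window of ENO2 held 1 match, 118 bases before the start, that of PDHA1 held 3 and that of PDHB held 6, of which 2 overlap in a single CACGTG. PKM held none in this window. GGGCGG, the GC box, occurred on either strand 2 times before ENO2, 3 times before PKM and 2 times before each of PDHA1 and PDHB. Of all 35116 windows of this length, 43.2% held the hypoxia core and 42.6% the GC box. The table matched 30 of the 31 members, and of the 17 with a single listed start 12 held the hypoxia core and 15 the GC box. A match is only a description of the letters.

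The pathway was expressed at very different levels from step to step, and TPM, being per length, allows the genes to be ranked. GAPDH, which oxidises glyceraldehyde phosphate, came first, at 3150.3 to 3506.9 TPM over the 7 libraries. ENO1, the common enolase, followed at 1059 to 1185 TPM, and LDHB, the lactate dehydrogenase subunit that favours lactate use, at 987 to 1196 TPM. PKM, pyruvate kinase, was at 627 to 1009 TPM, TPI1, triose phosphate isomerase, at 430.3 to 519 TPM, ALDOA, the main aldolase, at 318 to 440.4 TPM, PGK1, phosphoglycerate kinase, at 309 to 369.97 TPM and LDHA at 294 to 409 TPM. Over the libraries the range of LDHB overlapped those of ENO1 and PKM, TPI1 overlapped ALDOA, and ALDOA, PGK1 and LDHA overlapped one another. Within every library, however, LDHB was above PKM and TPI1 above ALDOA, and GAPDH stood clear of all. Together the 31 genes took 0.820% to 0.839% of all TPM in PA, against 0.887% and 0.919% in Lat-M1 and 0.928% and 0.849% in Lat-M2. That total includes the 4 structural RNAs, whose own share was larger in every PA library than in any Lat-M library. These shares therefore do not show a rise particular to the pathway. On the scaled values the tested members had median log2 fold changes below 0 against PA, -0.093 for Lat-M1 and -0.053 for Lat-M2. The genes of glucose synthesis were low but not the only low ones, since HK2, PDK2, ALDOC and PDK4 had lower means than PCK2. PCK2, the mitochondrial carboxykinase, was at 9.25 to 13.9 TPM and PC, pyruvate carboxylase, at 0.815 to 1.77 TPM. FBP1, fructose bisphosphatase, was listed at 0 in 4 libraries and at most at 0.113 TPM.

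**Figure D1:**
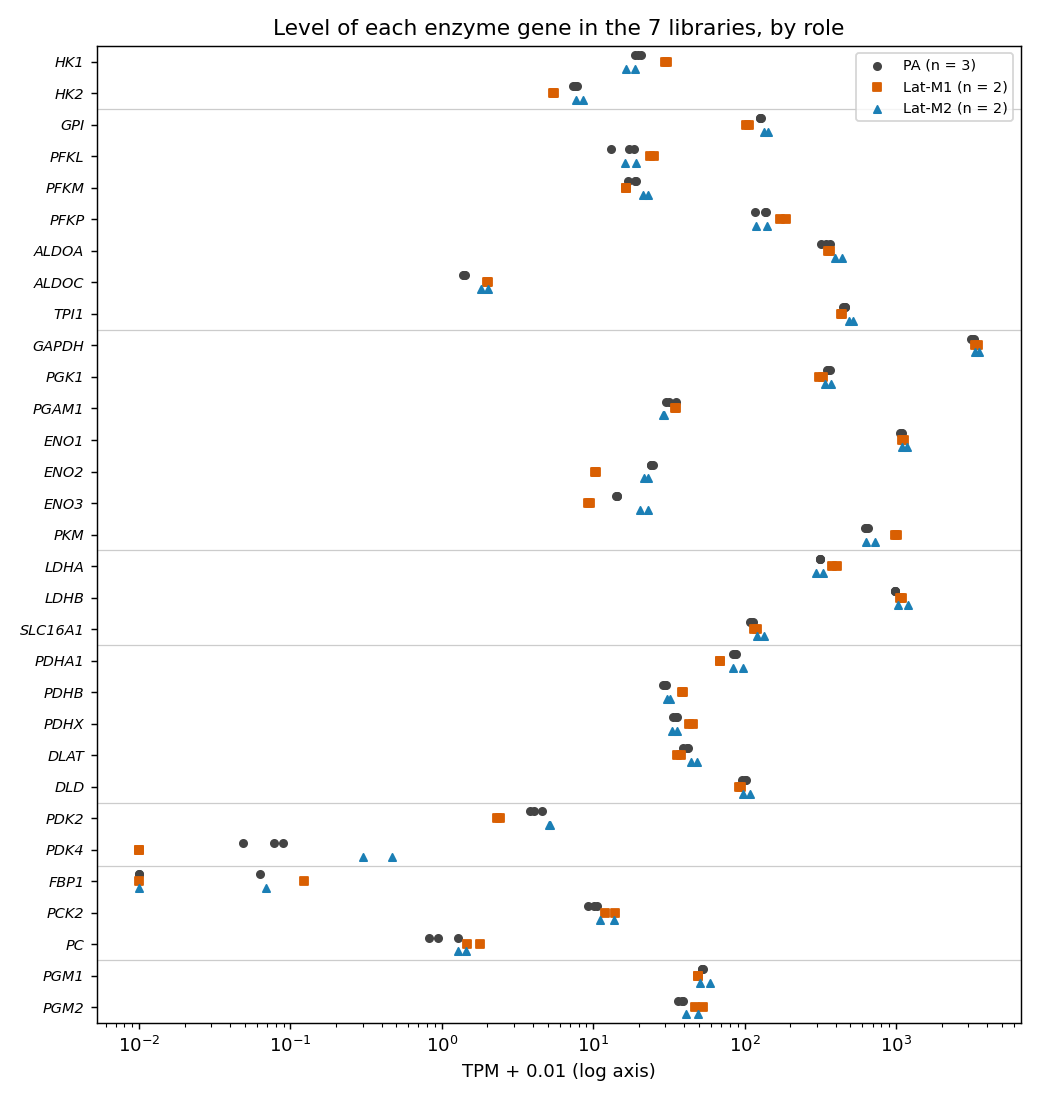
TPM plus 0.01 on a log axis for each of the 31 genes in every library, grouped by role from glucose trapping at the top to the phosphoglucomutases at the bottom. Points of PA, Lat-M1 and Lat-M2 coincide for most abundant enzymes such as GAPDH and ENO1. Those of Lat-M1 stand apart from both other groups for ENO2, ENO3, HK1, PKM and PDK2.

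Lat-M1 set against PA asked how the first numbered pair differed from the PA cells. In Lat-M1, HK1, PFKL, PFKP, PKM, LDHA, PDHB, PDHX, PCK2 and PGM2 rose and HK2, GPI, ENO2, ENO3, PDHA1 and PDK2 fell. That is 9 of 29 tested members higher, where 33.2% of all tested genes were called higher, and 6 lower, where 11.6% were (limma, Benjamini-Hochberg adjusted p under 0.05). The median log2 fold change of the 29 was 0.086, beside 0.16 for all genes. On the scaled values 8 members were higher and 14 lower (24% and 23% of all genes), and the median of the members was -0.093. The 8 were also called without scaling, and so were 6 of the 14. DLAT, DLD, ENO1, PFKM, PGK1, PGM1, SLC16A1 and TPI1 were called lower on the scaled values but not in the main fit. On the scaled values PCK2 lost its call. Without the second Lat-M1 library fewer members were called in each direction, and the share of all tested genes in that fit is not given. PKM, HK1, PDHB and PDHX among the rises and ENO2, ENO3, HK2 and PDK2 among the falls kept their calls under every alternative in which they could be tested.

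Of the hexokinases that trap glucose, HK1 rose and HK2 fell in Lat-M1. HK1, the hexokinase of most tissues, was at 19.8, 20.6 and 19.0 TPM in PA, at 29.9 and 30.5 TPM in Lat-M1 and at 18.9 and 16.5 TPM in Lat-M2. The Lat-M1 values lay above all others, a log2 fold change of 0.59 ± 0.073 against PA (SE; limma adjusted p = 0.000674). HK2, the inducible hexokinase of many tumours, was at 7.83, 7.61 and 7.30 TPM in PA, at 5.37 and 5.46 TPM in Lat-M1 and at 8.56 and 7.65 TPM in Lat-M2. It was lowest in Lat-M1 (-0.42 ± 0.080, limma adjusted p = 0.0046), and Lat-M2 overlapped PA. HK1 accordingly made up 72.3 ± 0.700% of the HK1 and HK2 TPM in PA, against 84.8 ± 0.0159% in Lat-M1 and 68.6 ± 0.358% in Lat-M2, where ± is the SD over the 3 PA libraries or the 2 libraries of a pair. Such a share within a library does not depend on how libraries are scaled, and for this pair of genes the 3 groups did not overlap. With 3 libraries against 2, an exact two-sided permutation test cannot go below p = 0.2, so shares are given without a test. Neither gene was the main hexokinase message: HKDC1, a related hexokinase domain gene of the wider pathway list that was singled out after its values were seen, was at 155 to 173 TPM in PA, 142 and 146 TPM in Lat-M1 and 163 and 148 TPM in Lat-M2. With HKDC1 counted, HK1 was 9.54% to 10.8% of the 3 messages in PA, 16.9% and 16.7% in the Lat-M1 libraries and 9.90% and 9.60% in those of Lat-M2, which then lay inside the PA range. The HKDC1 test missed the threshold in Lat-M1 without scaling (-0.21, limma adjusted p = 0.0514) and passed it scaled (-0.39, limma adjusted p = 0.000982).

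In upper glycolysis the phosphofructokinases were led by PFKP, the platelet type, at 117 to 138 TPM in PA and 171 and 188 TPM in Lat-M1 (0.46 ± 0.10, limma adjusted p = 0.00858). PFKL, the liver type, was at 13.2, 18.5 and 17.3 TPM in PA and 23.7 and 25.0 TPM in Lat-M1 (0.57 ± 0.14, limma adjusted p = 0.017). Both of these lay above PA in both Lat-M1 libraries, and both lost the call without the second of them (limma adjusted p = 0.0717 for PFKP and 0.102 for PFKL), as PFKL did without the first (0.0642). PFKM, the muscle type, was at 18.8, 19.0 and 17.0 TPM in PA, at 16.5 TPM in both Lat-M1 libraries and at 23.1 and 21.4 TPM in Lat-M2. Its share of the PFK messages was 11.1 ± 1.30% in PA, against 7.50 ± 0.453% in Lat-M1 and 13.2 ± 0.724% in Lat-M2. PA stood between the others without overlap. GPI, which converts glucose phosphate to fructose phosphate, was at 126 to 129 TPM in PA and 101 and 107 TPM in Lat-M1 (-0.29 ± 0.056, limma adjusted p = 0.00544; 0.0533 without the first Lat-M1 library). ALDOC, the brain aldolase, was at 1.37 to 1.40 TPM in PA and 1.96 and 2.01 TPM in Lat-M1 but missed the test.

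Enolase gave the largest differences. ENO2, the neuronal enolase and a known target of hypoxia factors, was at 24.2, 23.9 and 24.7 TPM in PA, at 10.5 and 10.3 TPM in Lat-M1 and at 22.8 and 21.7 TPM in Lat-M2. Lat-M1 lay far below both other groups, a log2 fold change of -1.15 ± 0.056 against PA (limma adjusted p = 7.53e-06), and it was the sole member past 2-fold in this comparison, where 4.77% of all genes were called at least 2-fold higher and 2.75% at least 2-fold lower. ENO3, the muscle enolase, was at 14.3, 14.4 and 14.2 TPM in PA, at 9.17 and 9.52 TPM in Lat-M1 and at 22.8 and 20.4 TPM in Lat-M2. It fell in Lat-M1 (-0.56 ± 0.068, limma adjusted p = 0.000573) and rose in Lat-M2, and no 2 groups overlapped. ENO1 was at 1098, 1081 and 1059 TPM in PA and 1094 and 1124 TPM in Lat-M1. It made up 96.6 ± 0.0803% of the enolase messages in PA, against 98.3 ± 0.0208% in Lat-M1 and a mean of 96.3% in Lat-M2. ENO2 was 63.0 ± 0.530% of the ENO2 and ENO3 TPM in PA and 52.7 ± 0.909% in Lat-M1.

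The last step before pyruvate rose in Lat-M1. PKM was at 631, 651 and 627 TPM in PA, 986 and 1009 TPM in Lat-M1 and 723 and 634 TPM in Lat-M2 (Lat-M1 against PA 0.65 ± 0.066, limma adjusted p = 0.000257). Both Lat-M1 values stood clear of the rest, while Lat-M2 overlapped PA. The ratio of PKM to GAPDH, again free of scaling, was 0.198 to 0.199 in PA, 0.295 and 0.291 in Lat-M1 and 0.206 and 0.192 in Lat-M2. These values are per gene and do not tell the M1 and M2 splice forms of PKM apart. GAPDH itself was at 3180.1, 3281.7 and 3150.3 TPM in PA, 3339 and 3462 TPM in Lat-M1 and 3507 and 3302 TPM in Lat-M2 and missed the test in each comparison. Of the other genes between aldolase and pyruvate, TPI1, PGK1 and PGAM1 missed the test in Lat-M1 without scaling. The 14 uncalled members of this comparison lay between -0.16 and 0.39 on the log2 scale.

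**Figure D2:**
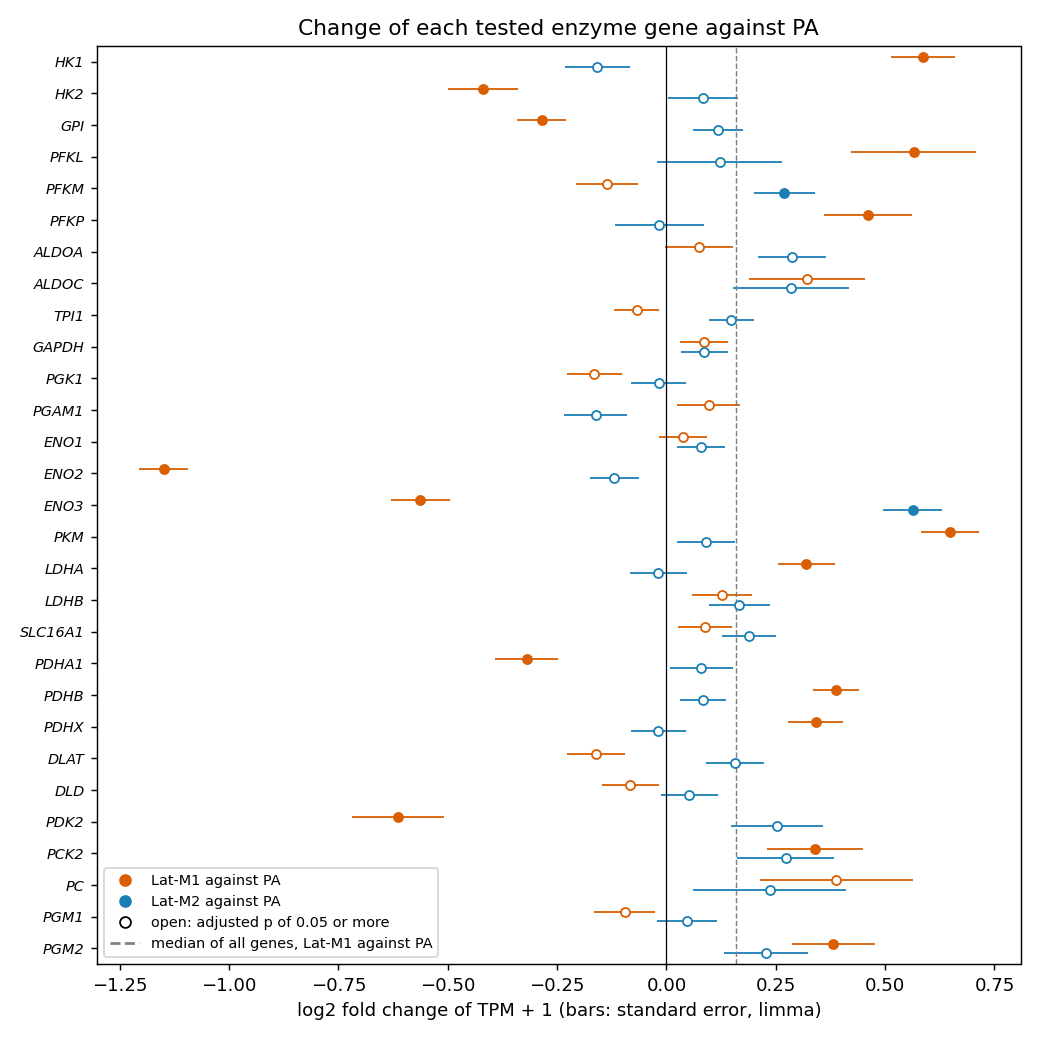
Log2 fold change of TPM + 1 with its standard error for the 29 tested genes in Lat-M1 (orange) and Lat-M2 (blue) against the same 3 PA libraries; filled points had a limma adjusted p under 0.05. Lat-M1 holds 15 filled points, from ENO2 at -1.15 to PKM at 0.65, and Lat-M2 holds 2, PFKM at 0.27 and ENO3 at 0.56.

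At the branch to lactate, LDHA, the subunit that favours lactate formation, was at 317, 312 and 317 TPM in PA, 379 and 409 TPM in Lat-M1 and 329 and 294 TPM in Lat-M2. It rose in Lat-M1 (0.32 ± 0.065, limma adjusted p = 0.00629; 0.0645 without the second Lat-M1 library). LDHB was at 992, 987 and 991 TPM in PA and 1066 and 1096 TPM in Lat-M1, a difference that missed the test. LDHB was 75.9 ± 0.0993% of the LDHA and LDHB TPM in PA, against 73.3 ± 0.663% in Lat-M1 and 78.1 ± 0.445% in Lat-M2, without overlap between groups. Listed genes named as copies of LDHA held up to 7.23% and those of PGAM1 up to 19.7% of the level of the gene in a library, so reads of these 2 genes may have been split. SLC16A1, the lactate and pyruvate carrier MCT1, was at 109 to 113 TPM in PA and 116 and 120.2 TPM in Lat-M1 and missed the test, but was called lower scaled.

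The pyruvate dehydrogenase complex did not move as a unit in Lat-M1. Its first enzyme pairs the catalytic alpha subunit with a beta subunit. PDHA1, the alpha subunit and the site of control by the kinases, was at 86.3, 87.2 and 84.2 TPM in PA and 68.9 and 68.3 TPM in Lat-M1 (-0.32 ± 0.072, limma adjusted p = 0.00936). PDHB, the beta subunit, was at 30.1, 28.98 and 29.6 TPM in PA and 39.2 and 38.8 TPM in Lat-M1 (0.39 ± 0.052, limma adjusted p = 0.000915). Thus 1 subunit fell and the other rose, and the ratio of PDHA1 to PDHB was 2.84 to 3.01 in PA, 1.76 in both Lat-M1 libraries and 3.07 and 2.72 in Lat-M2. PDHA1 lost its call without the second Lat-M1 library (limma adjusted p = 0.0627) and stood at 0.05 without the first. In the core of the complex, PDHX, which tethers the third enzyme to the core, was at 35.9, 33.4 and 35.2 TPM in PA and 43.2 and 45.6 TPM in Lat-M1 (0.34 ± 0.063, limma adjusted p = 0.00405). DLAT, the transacetylase of the core, was at 42.5, 39.4 and 41.6 TPM in PA and 35.7 and 37.7 TPM in Lat-M1. It was called lower on the scaled values but not in the main fit. The ratio of DLAT to PDHX was 1.18 in all 3 PA libraries, 0.826 and 0.827 in Lat-M1 and 1.35 and 1.33 in Lat-M2. DLD, the third enzyme, was at 95.9 to 101 TPM in PA and 92.1 and 94.98 TPM in Lat-M1. It likewise was called lower on the scaled values but not in the main fit.

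**Figure D3:**
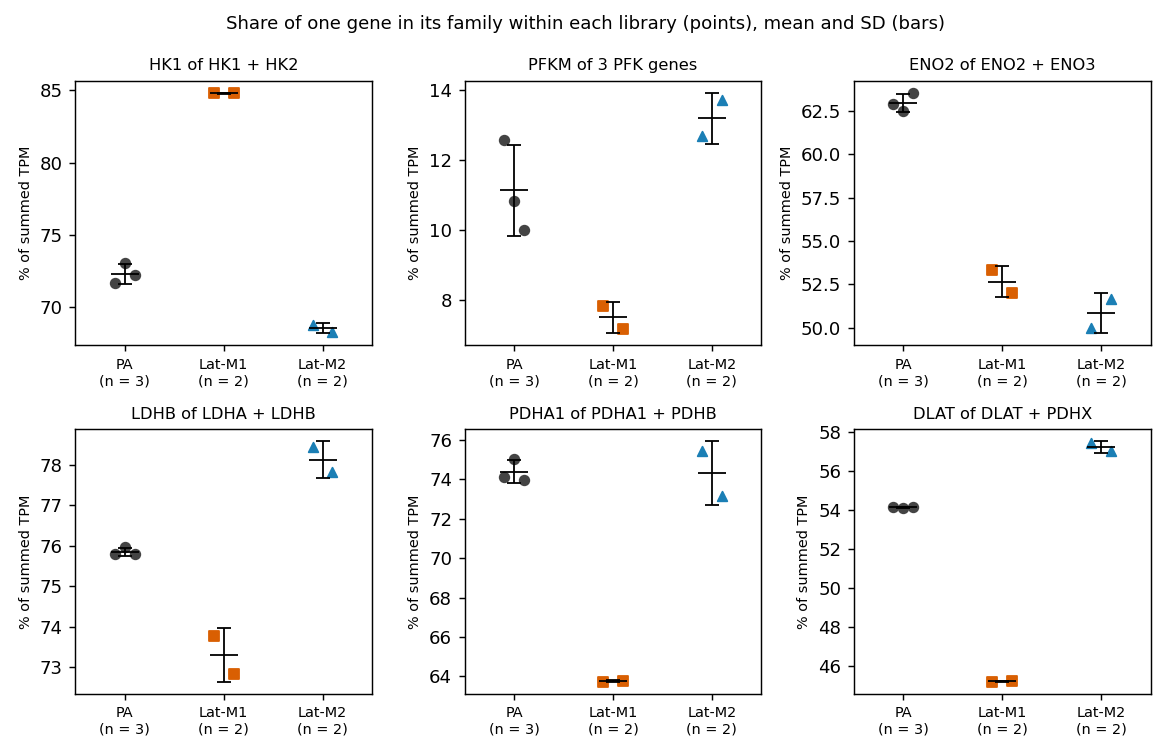
Percent of the summed TPM of a family held by 1 of its genes in each library (points), with the mean and SD of each group (bars); the vertical axes do not start at 0. Lat-M1 stands apart from both PA and Lat-M2 in the HK1, PFKM, LDHB, PDHA1 and DLAT panels, at 84.8%, 7.50%, 73.3%, 63.8% and 45.2%, whereas in the ENO2 panel Lat-M1 (52.7%) and Lat-M2 (50.8%) both lie below PA (63.0%). Lat-M2 also lies outside the PA range, on the other side from Lat-M1, in the HK1, PFKM, LDHB and DLAT panels (68.6%, 13.2%, 78.1% and 57.2%).

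The kinases that inhibit the complex were low. PDK2 was at 3.79, 4.59 and 4.02 TPM in PA, 2.40 and 2.29 TPM in Lat-M1 and 5.14 and 5.07 TPM in Lat-M2, and fell in Lat-M1 (-0.61 ± 0.11, limma adjusted p = 0.00285). PDK4, the kinase induced by fasting and fatty acids, was at 0.0682, 0.0385 and 0.0787 TPM in PA, listed at 0 in both Lat-M1 libraries and at 0.458 and 0.293 TPM in Lat-M2. These PDK4 levels were too low to be tested. In the glucose-making branch PCK2 was at 9.25, 10.6 and 10.1 TPM in PA and 11.9 and 13.9 TPM in Lat-M1 (0.34 ± 0.11, limma adjusted p = 0.0407; 0.124 scaled, 0.0501 and 0.248 without the first and second Lat-M1 library). PC was at 0.815, 1.26 and 0.930 TPM in PA and 1.46 and 1.77 TPM in Lat-M1 and missed the test. PGM2, a phosphoglucomutase that also acts on phosphopentoses, was at 39.3, 36.2 and 38.6 TPM in PA and 46.7 and 53.2 TPM in Lat-M1 (0.38 ± 0.095, limma adjusted p = 0.0148; 0.118 without the second Lat-M1 library). PGM1, the main phosphoglucomutase of glycogen metabolism, was at 52.3 to 53.1 TPM in PA and 49.0 and 49.4 TPM in Lat-M1. It was called lower on the scaled values but not in the main fit.

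Lat-M2 set against PA asked the same of the second pair, with the same PA libraries. ENO3 rose in Lat-M2, from 14.2 to 14.4 TPM in PA to 22.8 and 20.4 TPM (0.56 ± 0.068, limma adjusted p = 0.00418; 0.42 and 0.00278 scaled), and kept its call under every alternative. PFKM rose as well (0.27 ± 0.070, limma adjusted p = 0.0449), but its call ended scaled (0.12, limma adjusted p = 0.294), under 4 of the other alternatives, and without any 1 of PA 1, PA 2, PA 3, Lat-M1-1, Lat-M1-2 or Lat-M2-1 (limma adjusted p from 0.0785 to 0.199). These were 2 of 29 members higher, where 12.7% of all tested genes were, and 0 lower by limma, where 2.24% were. At an unadjusted p under 0.05 there were 10 members, but the share of all tested genes at that threshold is not given. The median log2 fold change of the 29 was 0.090, beside 0.14 for all genes. On the scaled values 1 member was higher and 5 lower, namely ENO2, HK1, LDHA, PDHX and PGK1 (7.47% and 8.41% of all genes), with a median of -0.053. Without the second Lat-M2 library more members were called higher, and the share of all tested genes in that fit is not given. The 27 members without a call lay between -0.16 and 0.29 on the log2 scale. The smallest limma adjusted p among them was 0.0501, that of ALDOA, at 318, 367 and 345 TPM in PA and 440.4 and 397 TPM in Lat-M2.

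Lat-M2 set against Lat-M1 asked where the pairs differed from each other, a comparison in which PA plays no part but for the shared estimate of spread. ENO3 was higher in Lat-M2 by 1.12 ± 0.075 on the log2 scale (limma adjusted p = 4.54e-05) and ENO2 by 1.03 ± 0.061 (limma adjusted p = 2.68e-05), the only members past 2-fold, beside 3.44% of all genes called at least 2-fold higher and 3.28% at least 2-fold lower. PDK2 was higher by 0.87 ± 0.12 (limma adjusted p = 0.00122), HK2 by 0.50 ± 0.087 (limma adjusted p = 0.00408), PFKM by 0.41 ± 0.077 (limma adjusted p = 0.0059), GPI by 0.40 ± 0.062 and PDHA1 by 0.40 ± 0.079. HK1 was lower in Lat-M2 (-0.74 ± 0.080, limma adjusted p = 0.000463), as were PKM (-0.56 ± 0.072, limma adjusted p = 0.00108), PFKP (-0.48 ± 0.11), PDHX (-0.36 ± 0.069), LDHA (-0.34 ± 0.071) and PDHB (-0.30 ± 0.057). DLAT and TPI1 were also higher and PGAM1 lower. In all, 9 members were higher and 7 lower, beside 16% and 20.1% of all tested genes. Scaled, 14 were higher and 6 lower (21.6% and 22.6%); the 9 and 6 of the 7 were called both ways, and PGAM1 was not. Without the second Lat-M1 library fewer members were called in each direction, again without a known share of all tested genes. Under every alternative that tested them, ENO2, ENO3, GPI, HK2, PDHA1, PDK2 and PFKM stayed called higher and HK1, PDHB and PKM lower. DLAT, TPI1, PFKP, PDHX, LDHA and PGAM1 did not keep their calls throughout.

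The comparison of all 4 Lat-M libraries with PA, the division the series design gives, called 0 of 29 members in either direction by limma, beside 2.51% of all tested genes higher and 0.389% lower. At an unadjusted p under 0.05 there were 3 members, but the share of all tested genes at that threshold is not given. With libraries of each group, PA included, treated as correlated repeats (limma's duplicateCorrelation), 0 members were again called. The log2 fold changes ran from -0.63 for ENO2 to 0.37 for PKM, and the spread in this fit includes the difference between the pairs. When the mean of the pairs was set against PA within the fit of 3 groups, 6 members were higher and 1 lower, beside 30.1% and 6.37% of all tested genes. The tests of each pair against PA share the PA libraries, so their calls were not counted together.

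Other genes of the pathway came from lists of neighbouring functions. Of 5 tested carriers of pyruvate and lactate, 2 rose and 1 fell in Lat-M1, and 1 rose in Lat-M2. Among all tested genes, 33.2% rose and 11.6% fell in Lat-M1, and 12.7% rose and 2.24% fell in Lat-M2. SLC16A3, the lactate exporter MCT4 of glycolytic cells, was at 1.39, 1.94 and 1.94 TPM in PA, 25.8 and 26.5 TPM in Lat-M1 and 1.28 TPM in both Lat-M2 libraries. Lat-M1 was thus 14.9 times as high as PA by the ratio of means (3.31 ± 0.12 on the log2 scale, limma adjusted p = 1.91e-06). SLC16A7, the carrier MCT2, was at 0.832, 0.677 and 0.969 TPM in PA, 4.10 and 4.48 TPM in Lat-M1 and 2.33 and 2.30 TPM in Lat-M2 and rose in both (limma adjusted p = 0.000133 and 0.0113). SLC16A1 remained the most abundant of the 3, with 97.7 ± 0.276% of their TPM in PA, against 79.5 ± 0.0605% in Lat-M1 and 97.2 ± 0.178% in Lat-M2. MPC2, a subunit of the mitochondrial pyruvate carrier, was named after its values were seen. It was at 537, 532 and 548 TPM in PA, 312 and 330.3 TPM in Lat-M1 and 584 and 537 TPM in Lat-M2, and fell in Lat-M1 (-0.75 ± 0.058, limma adjusted p = 7.17e-05).

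**Figure D4:**
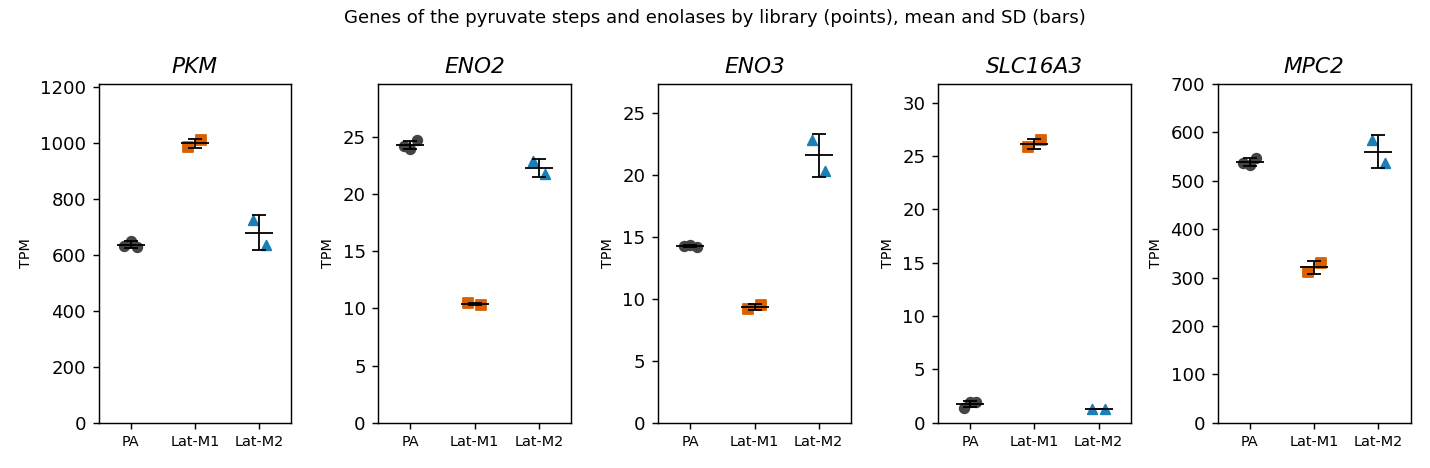
TPM of PKM, ENO2, ENO3 and the carriers SLC16A3 and MPC2 in each library (points), with the mean and SD of each group (bars) and axes from 0. Lat-M1 is highest for PKM (986 and 1009 TPM) and SLC16A3 (25.8 and 26.5 TPM) and lowest for the other 3 genes, and Lat-M2 is highest for ENO3.

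Among 9 tested regulators of glycolysis and of pyruvate entry, 3 rose and 1 fell in Lat-M1 and 3 rose in Lat-M2, where 3 also fell when scaled. For each count in this paragraph, the shares of all tested genes were 33.2% higher and 11.6% lower in Lat-M1. They were 12.7% and 2.24% in Lat-M2. Scaled, they were 24% and 23% in Lat-M1 and 7.47% and 8.41% in Lat-M2. PFKFB2, which makes the activator of phosphofructokinase, was at 1.82, 1.60 and 1.71 TPM in PA, 5.17 and 4.87 TPM in Lat-M1 and 3.83 and 3.87 TPM in Lat-M2. It rose in both (1.15 ± 0.10 and 0.84 ± 0.10, limma adjusted p = 0.000144 and 0.00452) and in all Lat-M against PA (1.00 ± 0.14, limma adjusted p = 0.0276; 0.0362 scaled). The last fit took the Lat-M libraries as independent, and no value for PFKFB2 is given with libraries of a group treated as correlated. Of the other isoenzymes 3 of 14 listed could be tested, and 1 rose in each pair (scaled, 1 rose and 1 fell in Lat-M1, and 0 rose and 1 fell in Lat-M2). This was ADPGK, an ADP-dependent glucokinase, from 17.6 to 18.7 TPM in PA to 34.6 and 35.2 TPM in Lat-M1 (0.90 ± 0.056, limma adjusted p = 2.29e-05) and to 22.7 and 22.03 TPM in Lat-M2 (0.29, limma adjusted p = 0.02; 0.074 scaled). PKLR, the liver pyruvate kinase, was too low to be tested, at 0.510 to 0.917 TPM in PA, 0.0360 TPM and 0 in Lat-M1 and 1.17 and 0.777 TPM in Lat-M2. Of 6 tested genes of glucose synthesis and release outside the 31, 1 rose in Lat-M1 and 2 in Lat-M2; scaled, 1 rose and 3 fell in Lat-M1, and 1 rose and 2 fell in Lat-M2. GPT2, a mitochondrial alanine transaminase, was the gene that rose in both, by 0.57 ± 0.078 each time (limma adjusted p = 0.000983 and 0.00669). PCK1, the cytosolic carboxykinase of the tubule, was at most 0.138 TPM in any library. ADPGK, PKLR, GPT2 and PCK1 were named after their values were seen.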

How the data were processed

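RNA sequencing of 7 libraries of 769-P cells was used, in the 3 groups given above. Each deposited table lists genes with a TPM value per library, a unit corrected for gene length and library total that the authors computed. Per the submitters' processing notes, TopHat2 2.2.4 and the hg19 build were used; the counting step is not given in the sources used here. No counts or depths were used, so no intervals are given.

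TPM was taken as log2(TPM + 1), which understates the change of low genes, and a gene was kept if its mean reached 1 TPM. limma 3.58.1 in R 4.3.3 (moderated test with trend and robust settings) was fitted over all 16724 genes with the 3 groups in 1 fit, and p-values were adjusted by Benjamini-Hochberg over all genes of a comparison, with calls at 0.05. The code was tested on simulated data. All Lat-M against PA was a separate fit of 2 groups. Alternatives were another pseudocount (0.1 TPM), no filter, a minimum mean of 5 TPM, median ratio scaling, 4 structural RNAs left out, a replicate block, fits of 2 groups and leaving out each library.

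The members, gene lists and tests were chosen with earlier results of these data known. All members could be named with their levels; fold changes and adjusted p-values were given for called members, uncalled members were given by levels, count and range, and values were given for genes of other lists when called and at least 2-fold, with at most 4 a list. Genes outside that rule are said to be so where named. Promoter windows came from RefSeq tables matched by symbol.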

Additional observations from a re-analysis of the deposited data

Results flagged for a closer look

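These results were marked because the effect against PA differed between the pairs of Lat-M libraries in a direct test, Lat-M2 against Lat-M1 (limma, adjusted p under 0.05, n = 2 libraries each). The largest differences on the log2 scale were in the minor enolases, ENO3 (1.12) and ENO2 (1.03), and in the kinase PDK2 (0.87), all higher in Lat-M2. HK2 (0.50), PFKM (0.41), GPI (0.40), PDHA1 (0.40), DLAT (0.32) and TPI1 (0.22) were also higher in Lat-M2. HK1 (-0.74), PKM (-0.56), PFKP (-0.48), PDHX (-0.36), LDHA (-0.34), PDHB (-0.30) and PGAM1 (-0.26) were lower in Lat-M2. The calls of DLAT, TPI1, PFKP, PDHX, LDHA and PGAM1 did not hold under every alternative. Groups of 2 and 3 libraries were too small to look for single libraries that stand apart.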

How the results depend on the processing

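Of 460 recomputed values of 33 gene results, 410 kept their direction and side of the threshold, 50 lost the call and 0 changed sign (limma). The 460 include fits that left out a library of the group outside the comparison, which enters only the shared estimate of spread and the filter. All 33 were called in the main fits, so members that gained a call, as under scaling, are not among these values. Median ratio scaling gave 14 members lower in Lat-M1 against PA, 1 higher and 5 lower in Lat-M2 against PA and 14 higher in Lat-M2 against Lat-M1. Leaving out the structural RNAs gave 15, 1 and 2, and 15 for the same counts. The fit of 2 groups gave 1 member higher in Lat-M2 against PA, and the contrast of the pairs' mean gave 6 higher and 1 lower for all Lat-M. Leaving out 1 library at a time gave 4 to 10 higher and 4 to 8 lower in Lat-M1 against PA, 1 to 9 higher and 0 lower in Lat-M2 against PA, 7 to 12 higher and 3 to 8 lower in Lat-M2 against Lat-M1, and 0 to 1 higher and 0 lower for all Lat-M. Leaving out the second Lat-M1 library gave 4 higher in Lat-M1 against PA and 3 lower in Lat-M2 against Lat-M1. Leaving out the first gave 4 lower in Lat-M1 against PA, and leaving out the second Lat-M2 library gave 9 higher in Lat-M2 against PA. A group left with 1 library was assumed to vary like the others. Shares of all tested genes are given only for median ratio scaling and the contrast of the pairs' mean. For the other alternatives, including the replicate block below, no such share is given. Their counts therefore cannot be read as particular to the members. The causes were not tested. TPM gives no depth, so what depth limits is unknown.

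Libraries with the same number did not deviate together (correlations from -0.082 to 0.0312), so the numbers were not taken to pair them. With the replicate block 8 members were higher and 6 lower in Lat-M1 against PA, 1 higher and 0 lower in Lat-M2 against PA, 8 higher and 6 lower in Lat-M2 against Lat-M1, and 0 in all Lat-M.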

Other observations

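Neighbouring pathways were counted from fixed lists. In Lat-M1 against PA, 5 of 11 tested glycogen genes rose and 1 fell, 3 of 8 pentose phosphate genes rose and 0 fell, and of 16 citric acid cycle genes 3 rose and 3 fell (limma). On the scaled values these were 5 and 3, 1 and 1, and 0 and 10. Beside these, 33.2% of all tested genes were called higher and 11.6% lower, and 24% and 23% scaled. In Lat-M2 against PA, 3 glycogen genes rose and 2 fell, 0 pentose phosphate genes were called by limma in either direction (0 at an unadjusted p under 0.05), and 1 citric acid cycle gene rose. Scaled, these were 3 and 4, 0 and 1, and 0 and 2. The shares of all tested genes in this comparison were 12.7% higher and 2.24% lower, and 7.47% and 8.41% scaled. No share is given at the unadjusted threshold. PGM2L1, which makes glucose bisphosphate, was at 5.88, 5.95 and 5.45 TPM in PA, 26.2 and 25.9 TPM in Lat-M1 and 4.39 and 3.68 TPM in Lat-M2. Lat-M1 lay far above the rest (2.00 ± 0.086 against PA, limma adjusted p = 4.26e-06). PPP1R3B, which targets a phosphatase to glycogen, was at 42.6 to 46.9 TPM in PA, 67.5 and 72.7 TPM in Lat-M1 and 31.6 and 25.5 TPM in Lat-M2, and was lower in Lat-M2 than in Lat-M1 (-1.27 ± 0.11, limma adjusted p = 0.000129).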
